A study of Mus musculus with 6 samples.

Results

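The genes described here are 10 genes whose proteins fill neutrophils: the primary granule genes Prtn3, Elane and Mpo, the secondary granule genes Ngp, Camp, Ltf, Lcn2 and Mmp8, and the cytosolic pair S100a8 and S100a9. They were chosen by name, and all 10 were found among the 19937 genes of the array, each with 1 probe set that names no other gene. Their level was read in 6 whole mammary tumours, each from a different female FVBN mouse carrying the MMTV-PyMT transgene, in which a mouse mammary tumour virus promoter drives the polyoma middle T antigen in mammary epithelium. Mice aged 75 to 90 days were examined for tumours and then dosed. In the Tumor.DMSO group 3 mice received the vehicle DMSO, and in the Tumor.TMP195 group 3 mice received TMP195, an inhibitor of class IIa histone deacetylases, at 50 mg/kg by injection into the abdomen once a day. The length of dosing is given as 5 days in one description and 2 weeks in another. The question put to these arrays was whether the inhibitor altered expression in the tumour as a whole, and for these genes whether the primary and secondary granule genes differed alike.

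Neutrophils pack their granules in the order in which they mature. Primary granules are made first, in promyelocytes in the bone marrow, and hold myeloperoxidase and serine proteases. Secondary granules follow in myelocytes and metamyelocytes, and hold lactoferrin, lipocalin 2, collagenase and antimicrobial peptides. The genes of primary granules are largely silent in neutrophils that have left the marrow, whereas S100A8 and S100A9, which bind calcium and zinc and pair as calprotectin, remain abundant in them. PU.1 and C/EBP factors are known to drive the granule genes, with C/EBP epsilon needed for the secondary ones. Lactoferrin and lipocalin 2 are also made by mammary and other epithelia, so their transcripts are not particular to neutrophils. In a whole tumour, fewer cells of a type and less RNA per cell cannot be told apart.

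Levels are log2 array intensities, on which 1 unit is a doubling. Each gene has its own probes, so a level mainly shows how bright a gene was beside the rest of the array. The files hold no detection calls. As a guide to the level of probe sets with little or no transcript, 1194 olfactory and vomeronasal receptor genes, used in the nose, had a median of 2.17, and 95% of them lay below 3.95. Column medians of the deposited intensities lay between 44.8 and 46.4 in the 6 tumours. Precision is limited by the number of arrays. The median half-width of a gene's 95% interval was 0.30. The luminal epithelial markers Epcam, Krt8 and Krt18 were bright, at percentiles 97.3, 98.8 and 99.3 of mean level. Vehicle tumour 2 stood apart in skeletal muscle genes, whose mean over 8 genes was 7.82 there and 4.83 to 5.15 in the other tumours. TMP195 tumour 2 had the lowest levels of the milk protein genes Wap and Csn2, at 6.77 and 6.03, beside 9.58 to 10.98 and 9.86 to 11.82 in the others. Csn3, another milk protein gene, was highest there, at 11.98 beside 11.73 to 11.97. Of the 9 luminal and mammary epithelial markers, 4 were lowest and 3 highest in TMP195 tumour 2. The mean of the other 7 luminal and mammary epithelial markers was 10.85 there, within the 10.70 to 10.87 of the other tumours, a split of the list made after seeing the data. Adipocyte markers ran lowest in TMP195 tumour 2 as well, with a mean over 7 genes of 4.66 beside 5.79 to 8.41.

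The 10 genes fell far apart in brightness. Lcn2 and Ltf were among the brightest genes on the array, with only 3 genes brighter than Lcn2 and 191 brighter than Ltf. Prtn3 averaged 5.77 and S100a8 5.52, near the middle of the array at percentiles 48.8 and 46.3. S100a9 and Camp, at 4.38 and 4.19, lay just above the nose receptors' upper limit. The remaining 4 genes, Elane, Mpo, Ngp and Mmp8, averaged 3.83, 3.51, 2.60 and 2.10 and did not exceed it. Of all genes other than the nose receptors, 75.2% exceeded this limit. Markers of neutrophils themselves were dim as well. Ly6g, the surface antigen that defines mouse neutrophils, averaged 2.80, and Cxcr2, their main chemokine receptor, 2.50. Of 16 measured receptors and cytosolic genes of mature neutrophils, 10 lay at or below the nose receptors' upper limit, and Csf3r, the receptor for granulocyte colony-stimulating factor, averaged 5.19. The set is therefore named by the proteins' known place in neutrophils, and these arrays do not show that the RNA came from neutrophils.

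**Figure D1:**
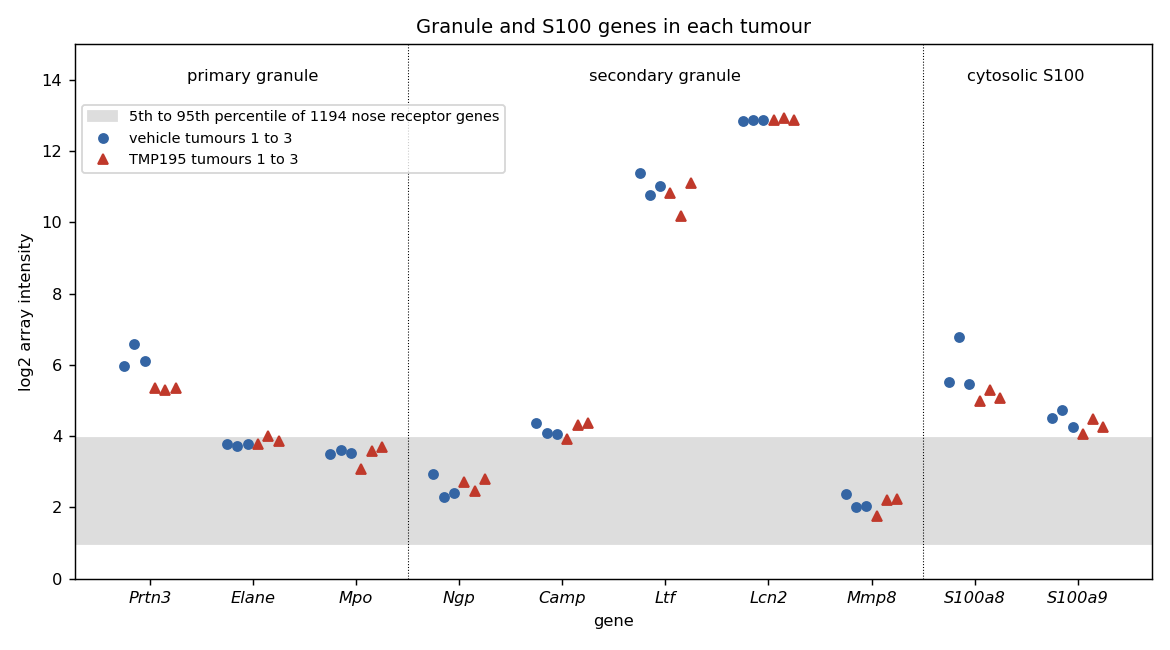
Log2 array intensity of the 10 genes (vertical axis) in each of 6 tumours, with circles for vehicle tumours 1 to 3 and triangles for TMP195 tumours 1 to 3, left to right. The grey band holds the 5th to 95th percentile of the mean level of 1194 nose receptor genes; Ltf and Lcn2 stand above 10, whereas Elane, Mpo, Ngp and Mmp8 lie within the band on average.

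No gene of the set passed the test. In limma's fit over all genes, 0 of 10 had a Benjamini-Hochberg adjusted p under 0.05, beside 0% of the 19937 genes. At an unadjusted p under 0.05 there was 1 of 10, Prtn3, beside 2.52% of all genes (502 genes). The count was 2 of 10, with S100a8, under the replicate block, without vehicle tumour 1, 2 or 3, and without both tumours numbered 2. The 19937 genes gave 397 under the block, 602, 503 and 504 without vehicle tumour 1, 2 and 3, and 742 without both. The vehicle and TMP195 tumours did not overlap in 3 of 10 genes, beside 6.68% of all genes, and these were Prtn3 and S100a8, both lower under TMP195 (2 of 10, beside 3.21%), and Elane, higher (1 of 10, beside 3.47%). A difference of at least 1.5-fold was found in 2 of 10, again Prtn3 and S100a8 and both lower, beside 1.27% of all genes in either direction and 0.772% lower. Of the set 6 genes were lower and 4 higher under TMP195, with a median difference of -0.08, and over all genes 50.5% were lower with a median of -0.0014. With 10 genes, each of these shares moves by a whole gene, and Prtn3 was already known to be lower in these tumours when the set was drawn up.

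**Figure D2:**
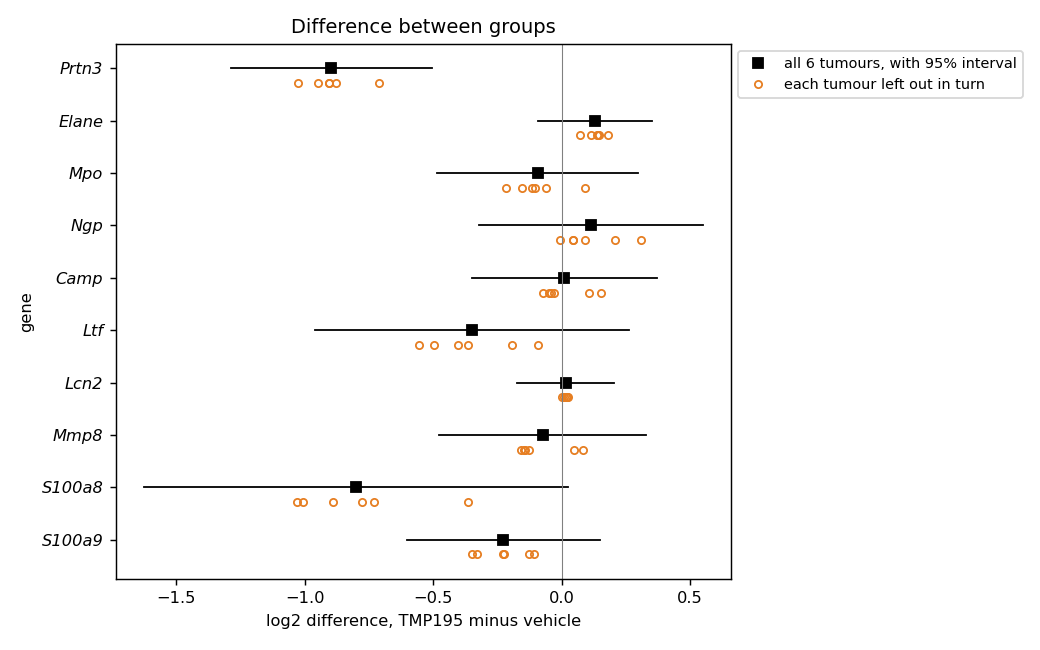
Difference between group means for each gene (horizontal axis, log2, TMP195 minus vehicle), with squares and lines for all 6 tumours and limma's 95% interval, and open circles for the difference with each tumour left out in turn. The interval of Prtn3, from -1.29 to -0.50, lies below 0, and the other 9 intervals include 0.

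Among the primary granule genes, Prtn3 was lower in all TMP195 tumours, Elane was slightly higher and in Mpo the groups overlapped. Prtn3 (probe set 10364529) encodes proteinase 3, a serine protease that cleaves elastin and activates cytokines. Its level in vehicle tumours 1 to 3 was 5.96, 6.59 and 6.11, whereas TMP195 tumours 1 to 3 had 5.34, 5.29 and 5.34. The 3 TMP195 tumours lay within 0.056 of each other, and the lowest vehicle tumour stood 0.61 above the highest of them. The vehicle mean was 6.22 ± 0.33 (SD, n = 3) and the TMP195 mean 5.32 ± 0.03 (SD, n = 3), which differ by -0.90 ± 0.16 (SE), or 1.86-fold lower, with a 95% interval of -1.29 to -0.50. Its unadjusted p of 0.00101 ranked 8 among 19937 genes, and its adjusted p in limma was 1.00. Without vehicle tumour 2, the highest in Prtn3 and the tumour with muscle transcripts, the difference was -0.71. Leaving out the highest vehicle tumour cannot change the gap of 0.61 between the nearest tumours.

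Elane and Mpo were close to the level of nose receptors. Elane (probe set 10364535) encodes neutrophil elastase, a serine protease closely related to proteinase 3. Its levels were 3.77, 3.73 and 3.79 under vehicle and 3.79, 4.01 and 3.88 under TMP195. Every TMP195 tumour lay above every vehicle tumour, but the gap between the nearest tumours was 0.0044. The difference was 0.13 ± 0.09 (SE), with a 95% interval of -0.09 to 0.35. At this level, close to that of probe sets with no transcript, a change may not show. Mpo (probe set 10380174) encodes myeloperoxidase, which makes hypochlorous acid and is the most abundant protein of primary granules. It was 3.51, 3.62 and 3.53 under vehicle and 3.09, 3.58 and 3.71 under TMP195, so that TMP195 tumour 1 was lowest and tumour 3 highest of all 6. Its difference was -0.09 ± 0.16 (SE), with an interval of -0.48 to 0.30, and without TMP195 tumour 1 it turned to 0.09.

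Prtn3 and Elane are neighbours on chromosome 10, with no other measured gene between them, and their promoters are shown because these adjacent protease genes differed between groups by -0.90 and 0.13; the contrast between the 2 genes was not tested. The RefSeq sequences (GRCm38.p6) run 5′ to 3′ over the 250 bases before each gene's start, with matches to GAGGAA, the core bound by PU.1, to TTNNGNAA, a loose C/EBP motif, and to TGTGGT, a RUNX motif, in capitals on either strand. The window of Prtn3 is chr10:79879417-79879666, plus strand, and that of Elane is chr10:79886062-79886311, plus strand.
Prtn3: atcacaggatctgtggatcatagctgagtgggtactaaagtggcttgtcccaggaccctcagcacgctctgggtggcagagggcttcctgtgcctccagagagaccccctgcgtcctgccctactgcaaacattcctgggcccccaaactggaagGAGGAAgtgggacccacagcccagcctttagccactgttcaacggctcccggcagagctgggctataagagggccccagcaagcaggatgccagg
Elane: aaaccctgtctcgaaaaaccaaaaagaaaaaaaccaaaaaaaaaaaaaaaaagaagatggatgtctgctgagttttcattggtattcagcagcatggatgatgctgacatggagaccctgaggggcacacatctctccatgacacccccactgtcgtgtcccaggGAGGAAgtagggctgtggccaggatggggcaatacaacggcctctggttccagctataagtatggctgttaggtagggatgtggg
Each promoter held a single match, GAGGAA on the gene's own strand, at 95 to 90 bases before the start in Prtn3 and at 85 to 80 in Elane. Mpo held 2 matches to GAGGAA, further out. Matches to GAGGAA were found in 23.3% of all 32851 promoter windows of this length in the table. TTNNGNAA was absent from the windows of all 3 primary granule genes. A match is a run of letters and shows no binding.

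The genes around Prtn3 differed less than it did. Of the 8 nearest measured genes, 4 on each side, the lowest difference was that of Plppr3, a membrane protein of neurons and the next measured gene before Prtn3, at -0.35 ± 0.21 (SE). Palm, which encodes paralemmin of the inner cell membrane, was 0.26 ± 0.13 higher, and Med16, a subunit of the Mediator complex just past Elane, differed by -0.07 ± 0.11. None of these neighbours had an unadjusted p under 0.05.

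**Figure D3:**
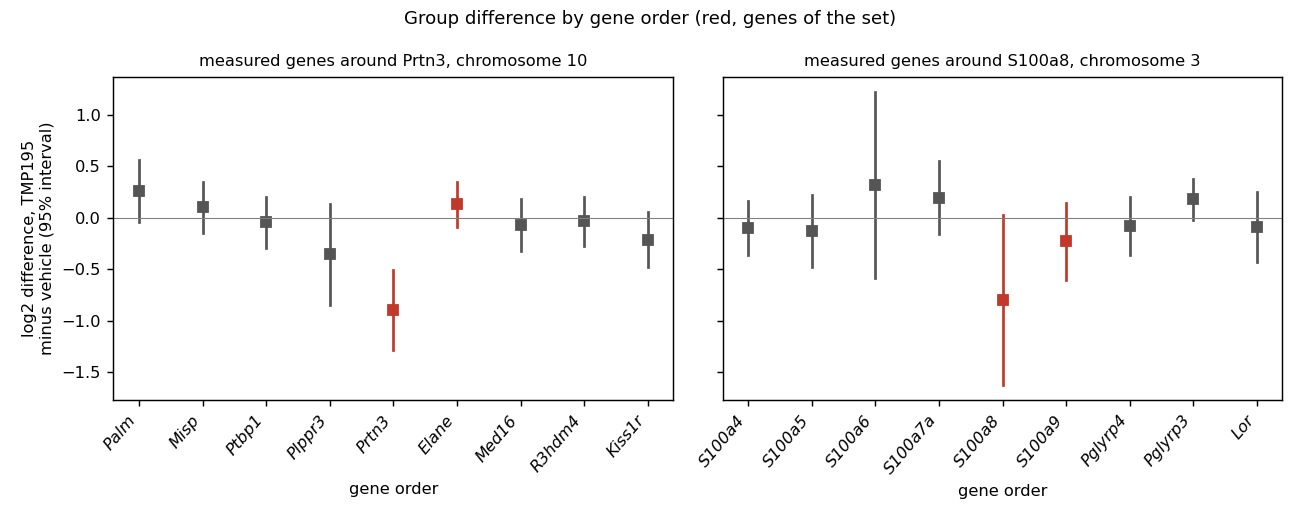
Difference between groups (vertical axis, log2, TMP195 minus vehicle, with 95% intervals) for the measured genes in order along the chromosome, 4 on each side of Prtn3 (left) and of S100a8 (right). Genes of the set are red; Prtn3 at -0.90 stands below both of its neighbours, and S100a8 at -0.80 has the lowest value of its stretch.

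Secondary granule genes went in both directions. Of 5 genes, 3 were higher and 2 lower under TMP195, no groups were apart, and the median difference was 0.01. Ltf and Lcn2, both also made by epithelium, were bright, and Ngp, Camp and Mmp8 were dim.

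Ltf differed most between tumours among the secondary granule genes. Ltf (probe set 10589703) encodes lactoferrin, an iron-binding protein of secondary granules and of milk. It was 11.37, 10.76 and 11.03 under vehicle and 10.81, 10.19 and 11.11 under TMP195, a difference of -0.35 ± 0.26 (SE) with a 95% interval of -0.96 to 0.26. The groups overlapped, with vehicle tumour 1 highest and TMP195 tumour 2 lowest. TMP195 tumour 2 was also lowest in the milk protein genes Wap and Csn2 and in Elf5, but highest in the milk protein gene Csn3. The mean of the 7 epithelial markers other than Wap and Csn2 was not low there. The part of milk protein or other epithelial transcripts in the Ltf value was not tested. Without TMP195 tumour 2 the difference was -0.09, and without TMP195 tumour 3 it was -0.55. The 200 brightest genes ranged over a median of 0.24 across the 6 tumours, and only 1 of them ranged more widely than Ltf, at 1.18.

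Lcn2 (probe set 10481627), which encodes lipocalin 2, a carrier that withholds iron from bacteria, hardly varied. Its levels were 12.85, 12.87 and 12.87 under vehicle and 12.86, 12.91 and 12.87 under TMP195. These 6 values spanned 0.059, a narrower range than in all but 1 of the 200 brightest genes and all but 23 of all genes. The difference was 0.02 ± 0.08 (SE), with an interval of -0.17 to 0.20. The brightest value on any array was 13.05, and how far a change at this height would show was not tested.

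Ngp, Camp and Mmp8 lay at or near the level of nose receptors. Ngp (probe set 10589535), which encodes neutrophilic granule protein, a relative of the cathelicidins, was 2.93, 2.30 and 2.40 under vehicle and 2.70, 2.48 and 2.80 under TMP195. Camp (probe set 10597098), the precursor of the antimicrobial peptide CRAMP, was 4.37, 4.10 and 4.07 under vehicle and 3.91, 4.31 and 4.36 under TMP195. Mmp8 (probe set 10583100), the neutrophil collagenase, was 2.38, 2.00 and 2.04 under vehicle and 1.76, 2.21 and 2.23 under TMP195. In all 3 genes vehicle tumour 1 was the highest, and the groups overlapped. The differences were 0.11 ± 0.18 (SE) for Ngp, 0.01 ± 0.15 for Camp and -0.07 ± 0.17 for Mmp8. Leaving out single tumours turned each sign: Ngp was -0.0080 without vehicle tumour 2, Camp ran from -0.07 to 0.15, and Mmp8 was 0.05 without vehicle tumour 1 and 0.08 without TMP195 tumour 1.

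**Figure D4:**
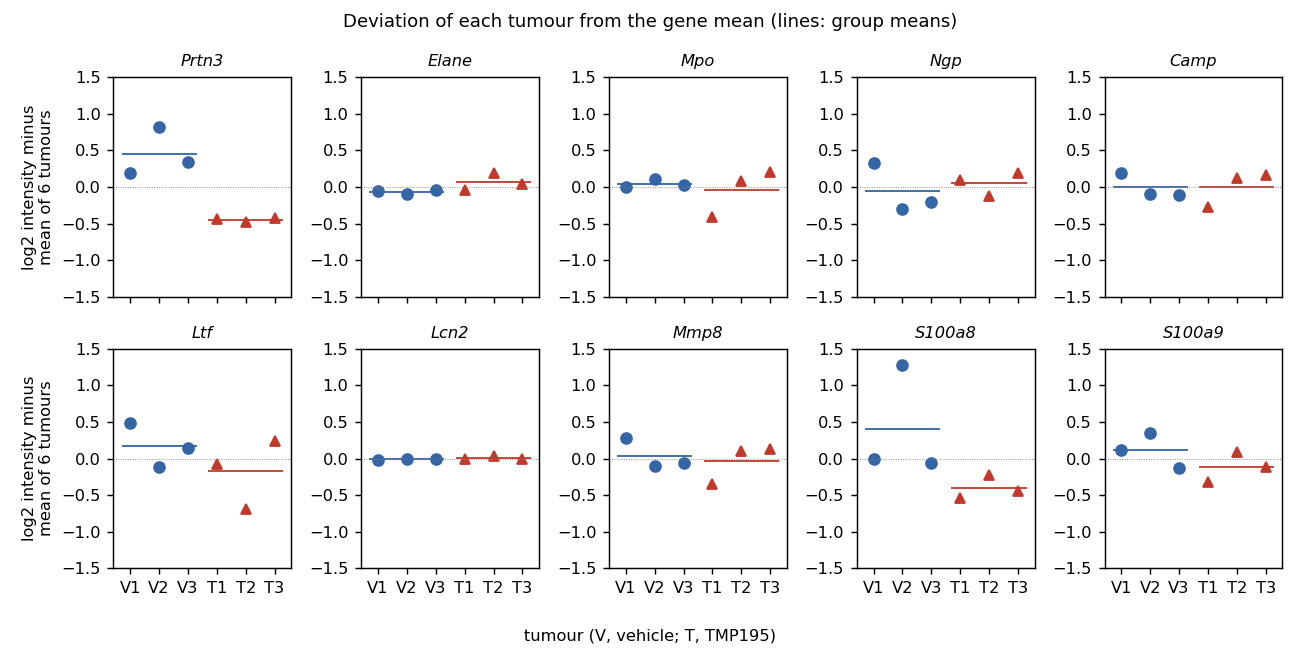
Deviation of each tumour from the mean of all 6 tumours (vertical axis, log2 units, the same scale in every panel) for the 10 genes, with circles for vehicle (V1 to V3), triangles for TMP195 (T1 to T3) and lines at the group means. In Prtn3 the 3 triangles lie together below all circles, Lcn2 is flat within 0.059, and S100a8 is highest in V2.

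Promoters of secondary granule genes are shown through Ltf and Ngp, a bright and a dim gene that hold the same C/EBP letters, with capitals marking the same motifs. The window of Ltf is chr9:111019042-111019291, plus strand, and that of Ngp is chr9:110419558-110419807, plus strand.
Ltf: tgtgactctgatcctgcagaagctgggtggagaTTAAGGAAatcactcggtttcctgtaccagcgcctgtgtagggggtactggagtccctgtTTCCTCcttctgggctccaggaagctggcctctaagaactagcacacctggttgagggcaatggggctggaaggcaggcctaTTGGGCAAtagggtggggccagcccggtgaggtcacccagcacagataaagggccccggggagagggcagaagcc
Ngp: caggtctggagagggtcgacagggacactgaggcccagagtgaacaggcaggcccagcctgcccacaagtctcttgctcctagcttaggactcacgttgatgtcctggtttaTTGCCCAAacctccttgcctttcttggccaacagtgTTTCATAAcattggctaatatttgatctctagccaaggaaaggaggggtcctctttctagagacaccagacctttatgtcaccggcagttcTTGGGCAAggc
TTGGGCAA, which fits TTNNGNAA, stood at 75 to 68 bases before the start in Ltf and at 11 to 4 in Ngp. Matches to TTNNGNAA were found in Ngp, Ltf, Lcn2 and Mmp8 and not in Camp, beside 36.8% of all promoter windows. Of the 10 genes, 6 matched this motif, 7 matched GAGGAA and 1 matched TGTGGT, beside 14.05% of windows for the last. No window of the set held the MEF2 consensus, found in 2.92% of windows and searched because MEF2 factors are partners of class IIa deacetylases. No match says only that these letters are not in this window.

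The groups were apart in S100a8, which was lower under TMP195, and overlapped in S100a9. S100a8 (probe set 10493831) encodes the smaller subunit of calprotectin. It was 5.51, 6.80 and 5.46 under vehicle and 4.98, 5.31 and 5.08 under TMP195, so that vehicle tumour 2 lay far above the rest while the other 2 vehicle tumours lay just above the TMP195 tumours. Group means were 5.92 ± 0.76 (SD, n = 3) and 5.12 ± 0.16 (SD, n = 3), a difference of -0.80 ± 0.35 (SE), or 1.74-fold lower, with a 95% interval of -1.62 to 0.03 (limma, unadjusted p 0.0559, adjusted p 1.00). Without vehicle tumour 2 the difference was -0.36 ± 0.13 (SE). The nearest tumours of the groups were apart by 0.16, a gap that leaving out the highest vehicle tumour cannot change. All 8 skeletal muscle markers were highest in vehicle tumour 2, and their part in the S100a8 value of that tumour was not tested.

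S100a9 (probe set 10499861), which encodes the larger subunit, was 4.50, 4.74 and 4.25 under vehicle and 4.07, 4.47 and 4.27 under TMP195. Vehicle tumour 2 was again the highest and TMP195 tumour 1 again the lowest, but the groups overlapped. The difference was -0.23 ± 0.16 (SE), with an interval of -0.60 to 0.15, and -0.11 without vehicle tumour 2. S100a8 and S100a9 are neighbours on chromosome 3 and are usually made together, and their promoters are shown as those of the pair. The window of S100a8 is chr3:90668821-90669070, plus strand, and that of S100a9 is chr3:90695722-90695971, minus strand.
S100a8: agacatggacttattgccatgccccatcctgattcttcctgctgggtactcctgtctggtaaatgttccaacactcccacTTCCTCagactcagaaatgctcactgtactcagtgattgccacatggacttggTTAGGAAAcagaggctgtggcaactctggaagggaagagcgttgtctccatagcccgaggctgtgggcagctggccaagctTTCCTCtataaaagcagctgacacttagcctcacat
S100a9: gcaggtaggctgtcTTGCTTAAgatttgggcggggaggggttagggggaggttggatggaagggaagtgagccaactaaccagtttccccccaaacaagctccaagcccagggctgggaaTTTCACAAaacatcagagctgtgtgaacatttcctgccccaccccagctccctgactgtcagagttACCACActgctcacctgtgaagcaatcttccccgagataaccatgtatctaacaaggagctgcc
S100a8 held TTCCTC, the reverse complement of GAGGAA, at 170 to 165 and at 36 to 31 bases before the start, and TTAGGAAA, a match to TTNNGNAA, at 117 to 110. S100a9 held 2 matches to TTNNGNAA and ACCACA, the reverse complement of TGTGGT, at 64 to 59. No match overlapped another in these windows.

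Other S100 genes went in both directions. Of 14 measured, 7 were higher and 7 lower, with a median difference of -0.00047. At an unadjusted p under 0.05 there was 1 lower, beside 1.34% of all genes, and 0 higher, beside 1.18%: S100g, the calcium carrier calbindin D9k, differed by -0.48 ± 0.19 (SE). In limma's fit its unadjusted p rose above 0.05 under the replicate block with all tumours (0.0778). It also did so, without the block, when vehicle tumour 2 or 3 or TMP195 tumour 2 was left out (0.120 to 0.133). The same held without both tumours numbered 2 (0.266), with cyclic loess (0.0575) and on log2(intensity + 16) (0.0516). S100a7a, just before S100a8 along the chromosome, was 0.20 ± 0.15 higher, and the epithelial genes S100a3 and S100a14 differed by -0.13 ± 0.12 and -0.12 ± 0.11. Without both tumours numbered 2 S100a7a turned to -0.02.

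Set side by side by class, the primary granule mean was lower under TMP195 and the secondary mean hardly differed. The mean of Prtn3, Elane and Mpo was 4.41, 4.64 and 4.48 in vehicle tumours and 4.08, 4.29 and 4.31 in TMP195 tumours, with no overlap. It averaged 4.51 ± 0.12 (SD, n = 3) and 4.23 ± 0.13 (SD, n = 3), a difference of -0.29. Without Prtn3 the mean of Elane and Mpo was 3.64, 3.67 and 3.66 under vehicle and 3.44, 3.80 and 3.79 under TMP195, a difference of 0.02. The mean of the 5 secondary genes was 6.78, 6.41 and 6.48 under vehicle and 6.41, 6.42 and 6.67 under TMP195, and its difference of -0.06 was smaller than the spread between tumours of a group (pooled SD 0.18). Without vehicle tumour 1 it turned to 0.06. With Ltf left out, chosen after seeing the data, the secondary difference was 0.02, and with both Ltf and Lcn2 left out it was also 0.02. Primary minus secondary was lower under TMP195 by a difference of -0.23, within the pooled SD of 0.23 between tumours, and with Prtn3 left out it turned to 0.08. Without vehicle tumour 2 it was -0.09, and without vehicle tumour 1 -0.39. No p is given for these means, since their genes were chosen by name with earlier results known. The mean of S100a8 and S100a9 was 5.01, 5.77 and 4.86 under vehicle and 4.53, 4.89 and 4.67 under TMP195, a difference of -0.51, and -0.24 without vehicle tumour 2.

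**Figure D5:**
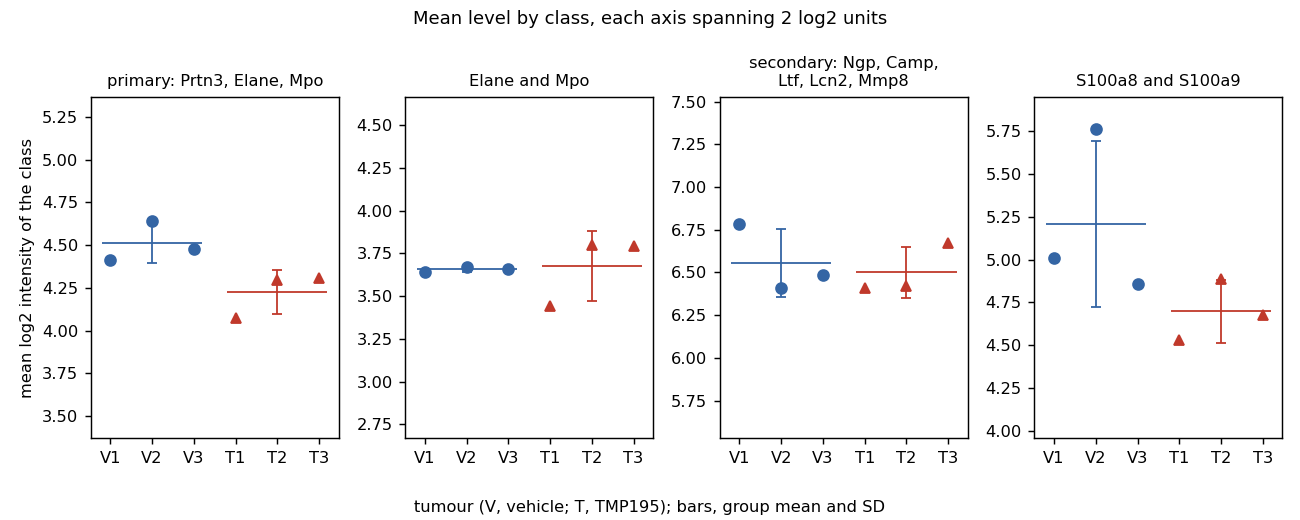
Mean log2 intensity of each class of genes in each tumour (vertical axis, 2 log2 units in every panel), with circles for vehicle (V1 to V3), triangles for TMP195 (T1 to T3) and bars for the group mean and SD (n = 3). The primary mean is lower in all TMP195 tumours, at 4.08 to 4.31 beside 4.41 to 4.64, and with Prtn3 left out the groups overlap.

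Further genes of the same granules were read from lists of related genes. In the list of other primary granule and promyelocyte genes, 5 of 9 were higher and 4 lower, with a median of 0.05 and 0 of 9 at an unadjusted p under 0.05. Bpi, which kills bacteria by binding their endotoxin, was 0.21 ± 0.09 (SE) higher with no overlap, in 1 of 9 genes beside 3.47% of all genes. Its mean of 3.12 lay inside the nose receptors' range. The protease inhibitor gene Cst7 was 0.24 ± 0.11 higher and the ficolin gene Fcnb 0.15 ± 0.09. Serpinb1a, an inhibitor of the proteases that Prtn3 and Elane encode, differed by -0.50 ± 0.35, and by -0.13 without vehicle tumour 2, -0.85 without vehicle tumour 1 and -0.02 without both tumours numbered 2. The list's median was -0.0080 without those 2 tumours. Of these 9 genes 4 were within the range of nose receptors.

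Among other secondary and tertiary granule genes, 6 of 15 were higher and 9 lower, with a median of -0.15 and means of 6.69 to 6.70 under vehicle and 6.43 to 6.63 under TMP195. These means did not overlap between the groups, with all tumours or without both tumours numbered 2. Of 18 related and cell type lists read, it was the only list apart with all tumours, and this was not tested. Single genes did not overlap in 1 of 15 lower, Ceacam10, beside 3.21% of all genes, and 1 higher, Chil3, beside 3.47%. Ceacam10 differed by -1.26 ± 0.74 (SE), at 4.87 in TMP195 tumour 2 and 7.76 to 8.14 in the others. Its part in the list means was not tested. At an unadjusted p under 0.05 there was 1 higher of 15, beside 1.18% of all genes, and 0 lower, beside 1.34%: Chil3, a chitinase-like protein of macrophages and neutrophils, was 0.48 ± 0.10 (SE) higher, at a mean level inside the nose receptors' range. Hp, the haemoglobin scavenger haptoglobin, which fat also makes, differed by -0.99 ± 0.47, Cyba, a subunit of the phagocyte oxidase, by -0.30 ± 0.16 and the lysozyme gene Lyz2 by -0.22 ± 0.13. Hp was 7.51 and 7.52 in TMP195 tumours 2 and 3 and highest, at 9.78, in vehicle tumour 3, where the mean of 7 adipocyte markers was also highest. Without that tumour its difference was -0.58, and without TMP195 tumour 1 it was -1.44. The part of adipocyte RNA in the Hp value was not tested.

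Receptors and cytosolic genes of mature neutrophils had a mean over 16 genes of 3.96 to 4.05 in all 6 tumours. Of these, 7 were higher and 9 lower, with 0 higher and 1 of 16 lower at an unadjusted p under 0.05, beside 1.18% and 1.34% of all genes: Lrg1, a secreted glycoprotein that endothelium and liver make too, at -0.43 ± 0.16 (SE). In limma's fit its unadjusted p rose above 0.05 under the replicate block (0.0733) and without vehicle tumour 2 or 3 or TMP195 tumour 2 or 3 (0.0829 to 0.09998), and without both tumours numbered 2 (0.185). Clec4e, a receptor for mycobacterial lipids, and the decoy receptor gene Il1r2 differed by 0.33 ± 0.17 and 0.37 ± 0.23, and Hdc, which makes histamine, by -0.27 ± 0.18. Growth and transcription factors of granulocytes split evenly, with 6 of 12 higher, a median of -0.01 and 0 of 12 at an unadjusted p under 0.05. Csf3, which encodes granulocyte colony-stimulating factor, differed by -0.34 ± 0.18, Spi1, which encodes PU.1, by -0.13 ± 0.10, Myb by -0.16 ± 0.13 and Csf2 by 0.12 ± 0.15. Neutrophil chemokines and the cytokines that raise them were higher in 4 of 9, with a median of -0.03 and 0 of 9 at an unadjusted p under 0.05. The chemokine gene Cxcl1 differed by 0.16 ± 0.13, Il23a by -0.40 ± 0.22 and Il17a by -0.20 ± 0.14. Receptors and partners of the proteins were higher in 7 of 11, with a median of 0.06, which turned to -0.12 without both tumours numbered 2, and 0 of 11 at an unadjusted p under 0.05. The fatty acid receptor gene Cd36 differed by -1.23 ± 1.11, and by -0.18 without TMP195 tumour 2, -0.47 without vehicle tumour 3 and -2.25 without TMP195 tumour 1. Cd36 was highest in vehicle tumour 3, at 8.40, and lowest in TMP195 tumour 2, at 3.55, as were the adipocyte markers on average, and their part in its value was not tested. Itln1, which encodes a lactoferrin-binding lectin, differed by 0.20 ± 0.19, Cd33 by 0.18 ± 0.19 and Lrp2, a receptor for lipocalin 2, by 0.09 ± 0.10.

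Markers of other cells that could carry these transcripts were read in the same tumours. Monocyte and macrophage markers were lower in 11 of 11, with a median of -0.12, and their mean level ran from 7.35 to 7.56 under vehicle and 7.14 to 7.36 under TMP195. Without both tumours numbered 2 the median was -0.25 and the groups no longer overlapped, at 7.45 and 7.56 under vehicle and 7.34 and 7.14 under TMP195. Adipocyte markers were lower in 7 of 7, with a median of -1.01 and means of 5.88 to 8.41 under vehicle and 4.66 to 7.68 under TMP195. Skeletal muscle markers were lower in 8 of 8, with a median of -0.91 that turned to 0.07 without both tumours numbered 2. Cell division genes were lower in 7 of 7, with a median of -0.32 that turned to 0.07 likewise, and their mean was highest, 8.70, in vehicle tumour 2 and lowest, 7.61, in TMP195 tumour 2. Fibroblast markers were lower in 5 of 6, with a median of -0.09 and means of 9.42 to 10.14 and 9.33 to 9.996. Eosinophil markers were lower in 5 of 6, and their mean ran from 3.13 to 3.29 under vehicle and 2.97 to 3.19 under TMP195, with 5 of 6 inside the nose receptors' range. Mast cell markers were lower in 5 of 7, with means of 4.41 to 4.60 and 4.25 to 4.61. Red cell and platelet markers were lower in 4 of 5, with means of 4.39 to 4.54 and 4.19 to 4.48, T and B cell markers in 5 of 7, with means of 3.71 to 3.90 and 3.64 to 3.96, and basal and squamous epithelial markers in 5 of 10, with means of 4.81 to 5.13 and 4.84 to 5.05. With all 6 tumours the means of these lists overlapped between the groups. Without both tumours numbered 2 the T and B cell means were lower and the skeletal muscle means higher under TMP195 with no overlap. In that setting the means of granulocyte growth and transcription factors, other S100 genes, and receptors and partners were also lower with no overlap. Each group then held only 2 tumours, and the lack of overlap was not tested. The look at overlap without those tumours was added after seeing the data. The part of these cells in the values of the 10 genes was not tested.

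The genes most like Prtn3 over the 6 tumours were Pcbd1, Trpv3, Slc26a9, Bst1 and Flnc, and those most like the mean of S100a8 and S100a9 were Hjv, Hspb7, Plppr3, Gja1 and Slc2a10. Likeness was the root mean square difference between log2 values, each gene centred on its own mean. The search covered 13390 genes at or above the 30th percentile of mean level. Predicted genes, with symbols of Gm and digits or ending in Rik, were left out. It was 0.13 for Pcbd1, which encodes an enzyme of tetrahydrobiopterin recycling, 0.17 for the ion channel gene Trpv3, 0.18 for the anion transporter gene Slc26a9, 0.21 for Bst1, a surface enzyme of bone marrow stroma and myeloid cells, and 0.22 for Flnc, the filamin of muscle. Pcbd1 was 5.94, 6.28 and 5.83 under vehicle and 5.24, 5.28 and 5.34 under TMP195. For the S100 pair it was 0.087 for Hjv, which encodes hemojuvelin, made in muscle and liver, 0.089 for the muscle heat shock protein gene Hspb7, 0.13 for Plppr3, 0.13 for the gap junction gene Gja1 and 0.13 for the glucose transporter gene Slc2a10. These 5 genes were all highest in vehicle tumour 2. The search ran over 6 tumours only, and the likeness was not tested.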

How the data were processed

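RNA of 6 whole tumours, 1 per mouse, was hybridised to Affymetrix arrays. Per the submitters' processing notes, RMA and Affymetrix Power Tools were used by the authors, and no source used here gives their versions or filters. The deposited table holds signal intensity of 27359 probe sets, taken as linear from their range (0.482 to 8873) and log2 transformed here. Their scale and any centring are not stated. A change shared by most genes would be hidden by normalization between arrays. The platform's annotation table gave 21784 probe sets 1 gene symbol, 1620 several and 3955 none; the brightest probe set stood for each of 19937 genes, and none was left out for low signal. Limma 3.58.1 in R 4.3.3 (lmFit, eBayes) compared the groups, two-sided, with Benjamini-Hochberg adjustment over all genes, and was tested on simulated data. Tables and plots were made with pandas 2.3.3, matplotlib 3.10.9 and numpy 2.4.6 under Python 3.11.15. The 10 genes, the lists and the tests were chosen with earlier results of these data known. Beside the 10 genes, the rule for named genes took up to 4 genes of each related list by unadjusted p, up to 3 markers of cell types whose mean ranged over 1 log2 unit or more, and 5 genes by likeness to a profile. Epcam, Krt8, Wap, Csn2, Ly6g, Cxcr2, Csf3r, Ceacam10 and the neighbours of Prtn3 were named beyond that rule. Alternatives were a replicate block, scaling by cyclic loess or by medians, a trended robust prior, array weights, a filter at the 30th percentile, log2(intensity + 16), other probe sets, an adjusted p of 0.1 and leaving out tumours. Same-numbered tumours were not paired by the labels, and their deviations from the group means correlated at -0.21, -0.06 and -0.10.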

Additional observations from a re-analysis of the deposited data

How the results depend on the processing

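The count of genes past an adjusted p of 0.05 was 0 over all genes and 0 among the 10 genes with all tumours and under every alternative run, the replicate block (0 and 0) included; the numbers pair no tumours here, and the block changed no call at an adjusted p of 0.05. At an unadjusted p under 0.05 all genes gave 502, with array weights 938, with the filter at the 30th percentile, which tests fewer genes, 243, and 742 without both tumours numbered 2. Among the 10 genes it gave 1, and 2 under the block, without any 1 vehicle tumour and without both tumours numbered 2. All genes gave 397 under the block and 503 to 602 without 1 vehicle tumour. Prtn3 kept its sign under all alternatives, from -1.03 to -0.69, as did S100a8 (-1.03 to -0.36), S100a9 (-0.35 to -0.11), Ltf (-0.55 to -0.09), Elane (0.05 to 0.18) and Lcn2 (0.0012 to 0.03). With Prtn3 left out, chosen after seeing the data, the primary mean moved to 0.019 and primary minus secondary to 0.076, because the class then holds only Elane and Mpo. Leaving out 1 tumour at a time gave -0.22 to 0.092 for Mpo, -0.0080 to 0.31 for Ngp, -0.072 to 0.15 for Camp and -0.16 to 0.082 for Mmp8. Camp was -0.090 without both tumours numbered 2. Under that setting these turned in sign: S100a7a from 0.20 to -0.021, Cd33 from 0.18 to -0.12, Acta1 from -1.30 to 0.48, Ckm from -0.94 to 0.31, Mb from -0.32 to 0.041, Mki67 from -0.21 to 0.084, Rrm2 from -0.37 to 0.069 and Top2a from -0.19 to 0.16. Array weights turned Mki67 to 0.020 and Top2a to 0.0073. With 1 tumour left out Krt18 ran from -0.071 to 0.058, Acta1 from -2.09 to 0.28, Ckm from -1.56 to 0.26, Mki67 from -0.39 to 0.064 and Top2a from -0.37 to 0.034. The cause of these turns was not tested. Probe sets near the nose receptors' level, as for Elane, Mpo, Ngp and Mmp8, limit what could be seen in those genes, and 3 tumours a group limit all.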
